A study of Rattus norvegicus with 18 samples.

Results

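The histocompatibility and antigen presentation genes of the rat kidney were followed through cadmium exposure. The set held every gene whose symbol starts with RT1-, the rat major histocompatibility complex, and 12 genes of peptide processing, transport and control (B2m, Tap1, Tap2, Tapbp, Psmb8, Psmb9, Psmb10, Psme1, Psme2, Nlrc5, Ciita and Cd74). It came to 46 of the 22084 genes measured, 23 RT1 class I genes, 11 RT1 class II genes and the 12 named genes. Each gene was read on its brightest probe set that names only that gene. Kidney RNA of SD (Sprague-Dawley) rats treated with normal saline or with cadmium chloride was hybridised to Affymetrix arrays after 1 day, 6 weeks or 12 weeks. Each of the 6 groups held 3 arrays, 18 in all, labelled as biological replicates. The labels give neither dose nor route, age nor sex, so p-values measure the spread between these samples. Values are the deposited log2 signals, and a difference is cadmium minus saline of group means on that scale, which has a ceiling of 19.93 and is not a calibrated fold.

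Class I molecules present peptides from inside the cell to CD8 T cells and are carried by almost all nucleated cells. The immunoproteasome cuts the peptides, the TAP pump moves them into the endoplasmic reticulum, tapasin holds the pump to an empty class I chain, and beta-2 microglobulin completes the molecule. Class II molecules present peptides taken up from outside to CD4 T cells and are found mainly on dendritic cells, macrophages and B cells. Interferons are known to raise class I and its processing genes, and the coactivators NLRC5 and CIITA act on class I and class II genes. SD rats are outbred and class I genes are near-identical and polymorphic copies, so a probe set named for 1 RT1 gene can read others, and which copy a signal came from is uncertain.

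The annotation listed 47 RT1 symbols. Of these, 13 stood only on probe sets that name several genes and are not members, among them RT1-A2, RT1-CE5 and RT1-CE7. In the RefSeq table of the rat 38 members lay on chromosome 20, and RT1-A was not matched there. Along that chromosome the class I genes of the M, T, N, S and CE series came first, then the class II genes, with Tap2, Psmb8, Tap1 and Psmb9 standing together between RT1-DOb and RT1-DMb, and RT1-A1 and Tapbp at the end.

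A background level of 4.20 was set as the 95th percentile of the mean signals of 1271 olfactory and vomeronasal receptor genes, few of which a kidney is known to use. By their mean over all 18 arrays 36 members lay above it, 15 of class I, 9 of class II and all 12 processing and control genes. The 8 class I genes at background were RT1-O1, RT1-M1-2, RT1-M1-4, RT1-M1-5, RT1-M2, RT1-M5, RT1-M10-1 and RT1-T18, and the 2 class II genes were RT1-Ha and the pseudogene RT1-Hb-ps1. No member came within 1 log2 unit of the ceiling. Array medians lay between 4.03 and 4.26. Markers of kidney tubule and glomerulus were above background on average for 10 of 10 genes measured. Among them the tubule gene Slc5a2 varied widely, from 7.56 to 16.24 over the 18 arrays. At 12 weeks it gave 9.88, 15.07 and 14.72 in saline and 11.82, 13.20 and 7.56 in cadmium. The part of this spread in the differences of the members, class II among them, was not tested. In whole tissue a change in the number of cells of a type and a change in RNA per cell cannot be told apart.

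The question at each time was whether cadmium shifted these genes against saline of the same time. At 6 weeks the class I gene RT1-S3 rose, and it alone of the 46 members passed. Differences above 0 were found for 38 of 46 members, 17 of 23 in class I, 9 of 11 in class II and 12 of 12 among the processing and control genes, where 49% of all genes lay above 0. Groups without overlap and higher in cadmium were found for 18 members, against 10.5% of all genes. At 12 weeks 22 of 23 class I genes lay above 0 and 3 of 11 class II genes, against 51.1% of all genes, and 0 of 46 members passed in limma. Averaged over 6 and 12 weeks 4 class I genes passed as higher in cadmium than in saline, RT1-S3, RT1-CE4, RT1-CE3 and RT1-T24-1.

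**Figure D1:**
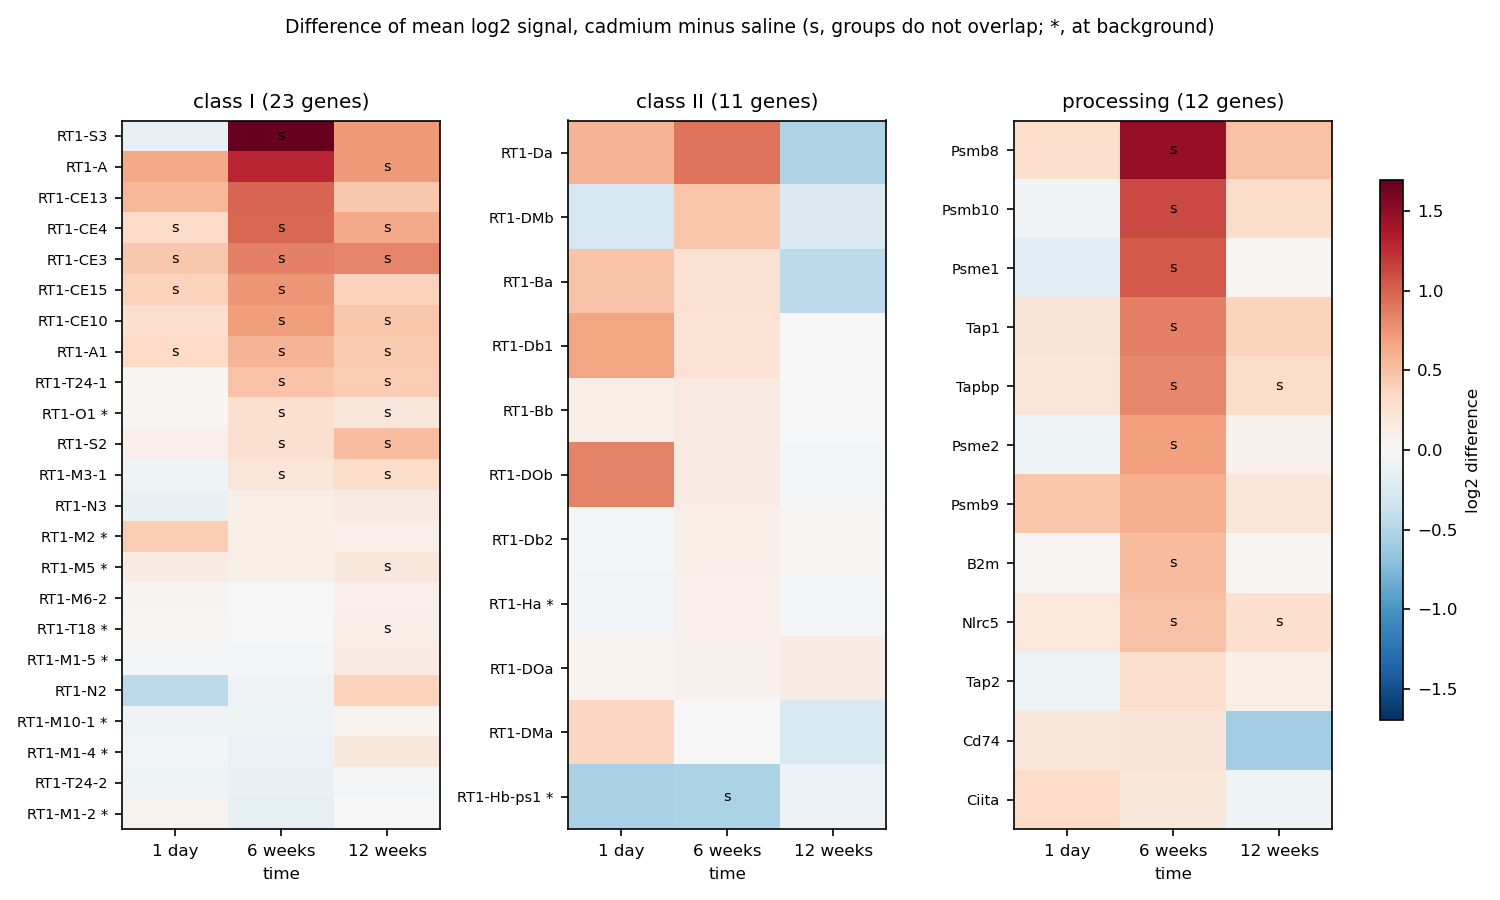
Difference of mean log2 signal (colour, cadmium minus saline) for the 46 members at 1 day, 6 weeks and 12 weeks, in 3 panels by class; s marks genes whose 3 cadmium and 3 saline arrays did not overlap and an asterisk marks genes at background. The class I and processing panels hold 18 of the marks for higher cadmium arrays at 6 weeks, and the class II panel holds none for higher.

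RT1-S3, a nonclassical class I gene, had the largest difference of the set at 6 weeks. Its log2 signal on the saline arrays was 7.80, 8.06 and 7.54 at 6 weeks, and on the cadmium arrays 9.35, 9.66 and 9.47. All 3 cadmium arrays lay above all 3 saline arrays of 6 weeks. The gene rose by 1.70 (SE 0.25, limma adjusted p = 0.0362), from 7.80 ± 0.26 to 9.50 ± 0.16 (SD, n = 3). Among all genes 8 passed in this direction, 0.0362%. The call was held in 17 of 27 alternatives, with adjusted p from 0.00178 to 0.251, and it was lost with the replicate number as a block (limma adjusted p = 0.0954). It was also lost without any 1 of 9 arrays: saline at 6 weeks replicate 1, 2 or 3, saline at 12 weeks replicate 2, cadmium at 1 day replicate 1 or 2, cadmium at 6 weeks replicate 1 or 2, and cadmium at 12 weeks replicate 3 (limma adjusted p from 0.0520 to 0.251). The difference itself stayed between 1.56 and 1.83 without each of these arrays.

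At the other times RT1-S3 was closer between the treatments. At 1 day the saline arrays gave 8.96, 8.30 and 9.15 and the cadmium arrays 8.75, 8.91 and 8.34, which overlap, with a difference of -0.14 (SE 0.25). At 12 weeks saline gave 8.44, 7.94 and 7.53 and cadmium 8.38, 8.82 and 8.87. The lowest cadmium array of 12 weeks lay below the highest saline array, and the difference was 0.72 (SE 0.25, limma adjusted p = 0.383). The saline level itself was lower at 6 weeks (7.80 ± 0.26) than at 1 day (8.80 ± 0.45, SD, n = 3), a difference that did not pass (limma adjusted p = 0.117).

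The promoter window of RT1-S3 is shown because its gene carries the only call at 6 weeks. It runs from 250 bases before the start to 50 bases after it in RefSeq (GRCr8, chr20:2675278-2675577, plus strand), and the capitals mark the core of the interferon-stimulated response element, GAAA, any 2 bases and GAAA on either strand, 112 bases before the start.
RT1-S3: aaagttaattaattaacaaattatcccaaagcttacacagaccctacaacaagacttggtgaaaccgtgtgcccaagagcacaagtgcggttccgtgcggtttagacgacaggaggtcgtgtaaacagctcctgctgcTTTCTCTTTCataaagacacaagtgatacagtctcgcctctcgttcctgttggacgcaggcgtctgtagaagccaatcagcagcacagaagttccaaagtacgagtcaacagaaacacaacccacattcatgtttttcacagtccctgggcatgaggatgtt

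Among class I genes, RT1-CE4 and RT1-CE3 were the next in order of p at 6 weeks. RT1-CE4 gave 7.52, 8.04 and 7.74 on the saline arrays of 6 weeks and 8.48, 9.03 and 8.72 on the cadmium arrays, so the groups did not overlap. The difference was 0.98 (SE 0.19) and did not pass (limma adjusted p = 0.0979). At 12 weeks saline gave 8.18, 8.22 and 7.48 and cadmium 8.44, 8.61 and 8.76. Again every cadmium array was the higher, with saline replicate 3 apart from the other saline arrays, and the difference was 0.64 (SE 0.19, limma adjusted p = 0.266), or 0.40 without that array.

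RT1-CE3 gave 7.70, 8.25 and 7.75 in saline and 8.36, 9.21 and 8.68 in cadmium at 6 weeks, a difference of 0.85 (SE 0.21, limma adjusted p = 0.209). At 12 weeks it gave 8.17, 8.20 and 7.77 in saline and 8.68, 8.97 and 8.96 in cadmium, a difference of 0.82 (SE 0.21, limma adjusted p = 0.156). The groups did not overlap at either time. This was the smallest p of any member at 12 weeks, and it passed there after quantile normalization (limma adjusted p = 0.0323).

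RT1-T24-1, a class I gene of the T series, lay above a saline level that fell over time. Its saline arrays gave 6.72, 6.88 and 7.06 at 1 day, 6.25, 6.34 and 6.24 at 6 weeks, and 6.26, 6.25 and 5.92 at 12 weeks. The cadmium arrays gave 6.71, 6.83 and 7.19, then 6.68, 6.67 and 6.94, then 6.66, 6.55 and 6.53. All cadmium arrays of 6 and 12 weeks lay above all saline arrays of those times, and at 1 day the groups overlapped. In saline the gene fell by 0.74 from 1 day to 12 weeks (SE 0.13, limma adjusted p = 0.0291), where 0.258% of all genes passed as lower. Without saline at 1 day replicate 2 or 3, or saline at 12 weeks replicate 2 or 3, that call was lost (limma adjusted p from 0.0711 to 0.174). It was also lost with the replicate block (limma adjusted p = 0.0624) and after quantile normalization (limma adjusted p = 0.0595).

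Averaged over 6 and 12 weeks, 4 of 23 class I genes passed as higher in cadmium than in saline, where 0.34% of all genes did. The mean difference was 1.21 for RT1-S3 (SE 0.18, limma adjusted p = 0.00695). It was 0.81 for RT1-CE4 (SE 0.13, limma adjusted p = 0.0159) and 0.84 for RT1-CE3 (SE 0.15, limma adjusted p = 0.0226). It was 0.46 for RT1-T24-1 (SE 0.09, limma adjusted p = 0.0469), the value nearest the threshold, with RT1-A1 just outside it at 0.51 (SE 0.11, limma adjusted p = 0.0564). RT1-S3 passed in 26 of 26 alternatives, RT1-CE4 in 25, RT1-CE3 in 22 and RT1-T24-1 in 10. RT1-T24-1 was lost under median centring (limma adjusted p = 0.0528), quantile normalization (0.0818) and the replicate block (0.0857), and without any 1 of 13 arrays, which include all 3 cadmium arrays of 6 weeks and of 12 weeks (limma adjusted p from 0.0645 to 0.139). RT1-CE4 was lost without saline at 6 weeks replicate 3 (limma adjusted p = 0.0505). RT1-CE3 was lost without saline at 6 weeks replicate 1 or 3, saline at 12 weeks replicate 3 or cadmium at 12 weeks replicate 2 (limma adjusted p from 0.0659 to 0.0742). Neither a class II gene nor a processing or control gene passed in this average. At an unadjusted p under 0.05, 12 of 23 class I genes, 8 of 12 processing genes and 0 of 11 class II genes were higher, against 5.01% of all genes.

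**Figure D2:**
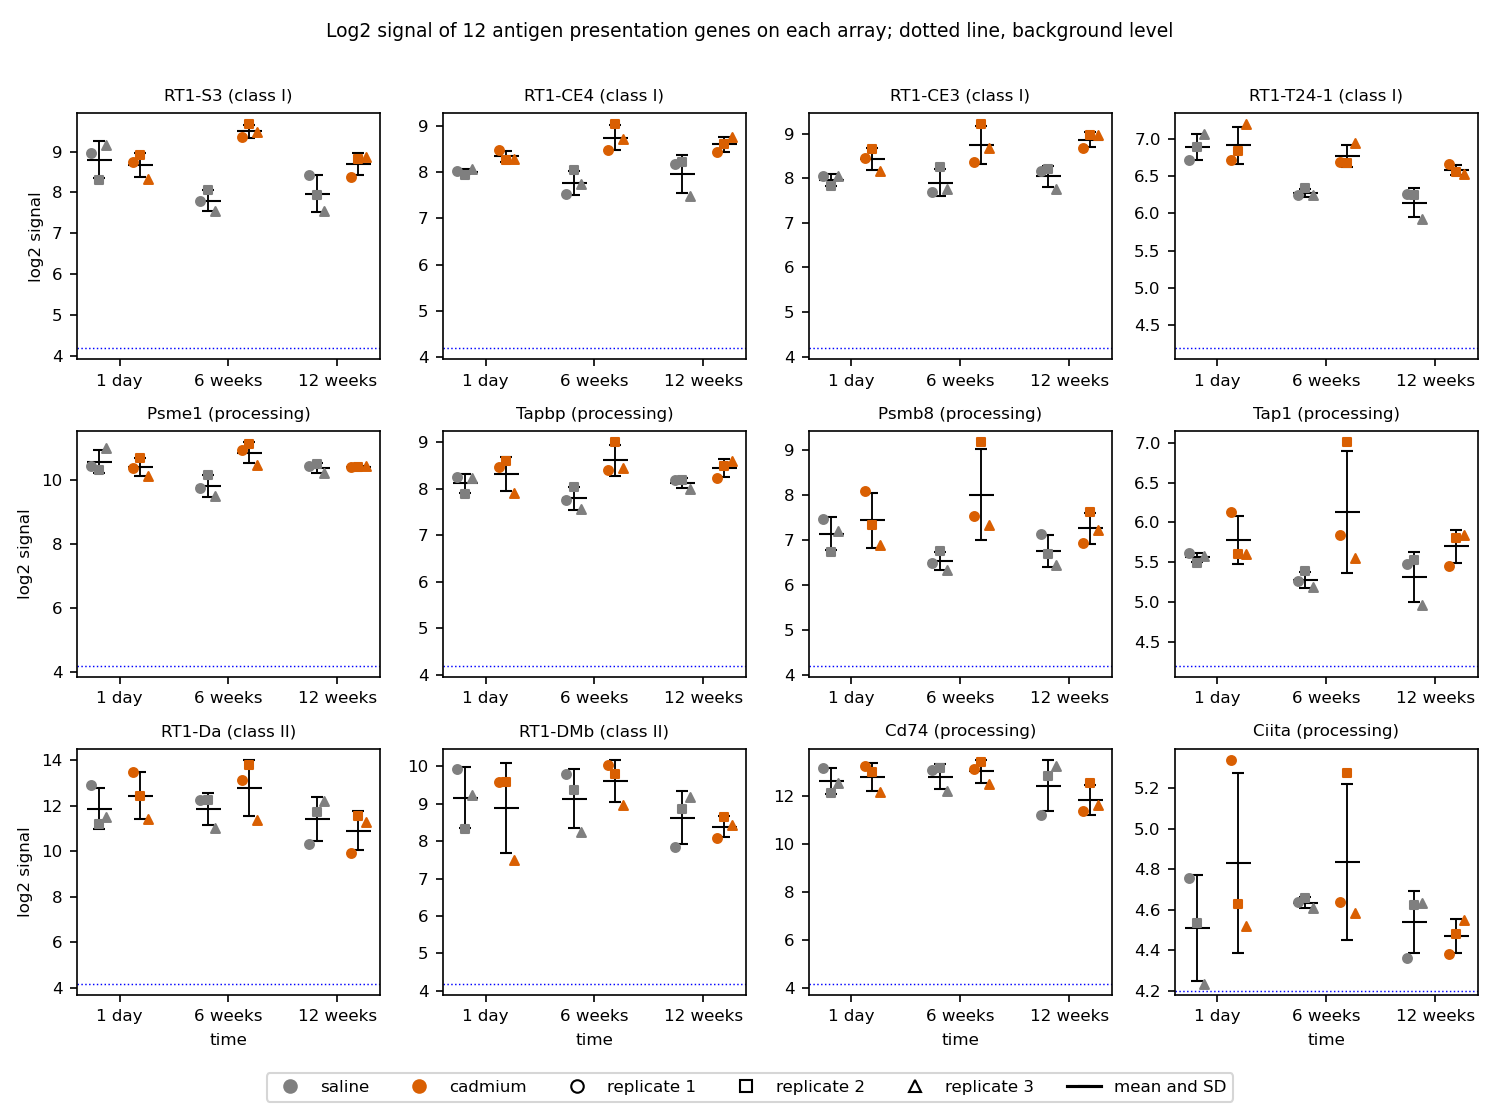
Log2 signal of 12 members (4 class I, 2 class II, 6 processing or control) on each of the 18 arrays at 1 day, 6 weeks and 12 weeks; grey is saline, orange is cadmium, symbols are replicates, bars are mean and SD of 3 arrays, and the dotted line is the background level of 4.20. RT1-S3, RT1-CE4, RT1-CE3 and RT1-T24-1 have all cadmium arrays of 6 weeks above all saline arrays of 6 weeks, and RT1-Da, RT1-DMb and Cd74 overlap at every time.

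Other class I genes differed in how closely their arrays held together. RT1-A1 did not overlap at any of the 3 times, with differences of 0.34 at 1 day, 0.58 at 6 weeks and 0.45 at 12 weeks (SE 0.15 each). RT1-A gave 6.02, 7.25 and 5.81 in saline and 7.42, 8.34 and 7.18 in cadmium at 6 weeks. Its difference of 1.29 (SE 0.36, limma adjusted p = 0.279) was the second largest of class I, yet saline replicate 2 lay above cadmium replicate 3. RT1-CE13 overlapped at every time, with 0.99 (SE 0.38) at 6 weeks. RT1-CE15 did not overlap at 1 day and 6 weeks (0.39 and 0.75, SE 0.22 each) and overlapped at 12 weeks. RT1-CE10 did not overlap at 6 and 12 weeks (0.71 and 0.47, SE 0.20 each). None of these passed.

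The rest of class I above background did not pass in any cadmium comparison. RT1-M3-1 was 0.20 higher at 6 weeks and 0.30 at 12 weeks (SE 0.08 each) without overlap, on saline means of 4.79 and 4.67, not far from background. RT1-S2 was 0.27 higher at 6 weeks and 0.52 at 12 weeks (SE 0.15 each), also without overlap. RT1-N2, RT1-N3, RT1-M6-2 and RT1-T24-2 overlapped at every time, and RT1-N2 had a wide spread, from 6.70 to 8.97 among the cadmium arrays of 1 day. Over all 23 class I genes the differences at 6 weeks ran from -0.16 to 1.70 with a median of 0.20, where the median of all genes was -0.0042. Class I genes with higher cadmium arrays and no overlap numbered 10 of 23 at 6 weeks, 11 of 23 at 12 weeks and 4 of 23 at 1 day. Among all genes that share was 10.5% at 6 weeks, 7.92% at 12 weeks and 2.35% at 1 day. Above background the class I count was 9 of 15 at 6 weeks, 8 of 15 at 12 weeks and 4 of 15 at 1 day. The shares given are over all genes, and none was taken over genes above background, so these counts have no like share.

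Symbols that share a probe set were read apart, since they name no single gene. With these probe sets admitted to the fit, 6 held RT1 names. That of RT1-A3 and RT1-CE16 passed at 12 weeks with a rise of 0.51 (SE 0.10, limma adjusted p = 0.0440). Its saline arrays gave 6.92, 6.91 and 6.71 and its cadmium arrays 7.36, 7.35 and 7.36. Averaged over 6 and 12 weeks it rose by 0.44 (limma adjusted p = 0.0113), that of RT1-T24-3 and RT1-T24-4 by 0.61 (limma adjusted p = 0.0112), and that of RT1-CE4 with 5 further CE symbols by 0.64 (limma adjusted p = 0.0116). The probe set of RT1-M6-1 and RT1-M4 had a difference of 0.05 in that average and a mean at background.

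Processing and control genes lay above saline at 6 weeks without passing. Differences were above 0 for 12 of 12, from 0.20 to 1.48 with a median of 0.65, and 8 of 12 had an unadjusted p under 0.05, against 5.63% of all genes as higher, and 8 of 12 did not overlap. Cadmium at 6 weeks replicate 2 was the highest of its 3 arrays for 12 of 12 of these genes, and the highest of all 18 arrays for 11 of 12. Without it 11 of 12 lay above 0 with a median of 0.40, and the median of class I went from 0.20 to 0.15.

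Among the immunoproteasome subunits, Psmb8 gave 6.48, 6.74 and 6.33 in saline and 7.52, 9.16 and 7.32 in cadmium at 6 weeks. The groups did not overlap, but cadmium replicate 2 lay far above the other cadmium arrays. The difference was 1.48 (SE 0.41, limma adjusted p = 0.286), and 0.90 without that array. On the dimmer probe set of Psmb8 it was 0.78 over all arrays, also without overlap. Psmb10 gave 4.95 to 5.20 in saline against 5.98, 6.95 and 5.56 in cadmium, a difference of 1.11 (SE 0.29, limma adjusted p = 0.231) and 0.72 without that array. Psmb9 overlapped, with 5.73, 6.12 and 5.68 in saline and 6.20, 7.36 and 5.82 in cadmium, a difference of 0.62 (SE 0.31) and 0.17 without that array.

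Psme1 and Psme2 encode the subunits of the PA28 cap, which opens the proteasome. Psme1 gave 9.74, 10.16 and 9.49 in saline and 10.94, 11.11 and 10.47 in cadmium at 6 weeks. Its cadmium arrays held together and lay above all saline arrays, with a difference of 1.04 (SE 0.21, limma adjusted p = 0.119) and of 0.91 without replicate 2. At 12 weeks the difference was 0.04 (SE 0.21), with saline at 10.37 ± 0.15 and cadmium at 10.41 ± 0.02 (SD, n = 3). Saline of 6 weeks was lower than saline of 1 day by a difference of -0.77 (SE 0.21, limma adjusted p = 0.158). Psme2 differed by 0.69 at 6 weeks (SE 0.20, limma adjusted p = 0.307), by 0.42 there without replicate 2, and by 0.07 at 12 weeks.

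In peptide transport and loading, Tap1, a subunit of the pump, gave 5.27, 5.38 and 5.18 in saline and 5.84, 7.01 and 5.55 in cadmium at 6 weeks. The difference of 0.85 (SE 0.28, limma adjusted p = 0.361) was 0.42 without cadmium replicate 2. Tap2, its partner, overlapped on its brightest probe set, with 0.29 (SE 0.18) and 0.17 without that array. Its dimmer probe sets did not overlap at 6 weeks, with differences of 0.44 and 0.16. Tapbp, which encodes tapasin, gave 7.76, 8.04 and 7.56 in saline and 8.39, 8.99 and 8.43 in cadmium, a difference of 0.82 (SE 0.20, limma adjusted p = 0.207). It was also without overlap at 12 weeks, at 0.32 (SE 0.20). B2m, the light chain of class I, gave 14.84, 14.91 and 14.37 in saline and 15.18, 15.55 and 14.99 in cadmium at 6 weeks, a difference of 0.53 (SE 0.19, limma adjusted p = 0.393), and it differed by 0.04 at 12 weeks.

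Of the coactivators, Nlrc5 gave 4.84, 4.98 and 5.03 in saline and 5.15, 6.17 and 5.03 in cadmium at 6 weeks. Cadmium replicate 2 stood apart, and the difference of 0.50 (SE 0.22) was 0.14 without it. Ciita gave 4.64, 4.66 and 4.61 in saline and 4.64, 5.28 and 4.59 in cadmium. Its difference of 0.20 (SE 0.21) turned to -0.02 without that array. At 12 weeks Nlrc5 differed by 0.28 (SE 0.22) without overlap and Ciita by -0.07 (SE 0.21).

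The promoter windows of 4 processing genes are shown because they hold the same core as RT1-S3, in capitals. They are from RefSeq (GRCr8), with Tapbp at chr20:4967828-4968127, Psmb10 at chr19:50743243-50743542, Psmb8 at chr20:4656982-4657281 and Tap1 at chr20:4668494-4668793, all on the minus strand of the chromosome and printed in the direction of the gene.
Tapbp: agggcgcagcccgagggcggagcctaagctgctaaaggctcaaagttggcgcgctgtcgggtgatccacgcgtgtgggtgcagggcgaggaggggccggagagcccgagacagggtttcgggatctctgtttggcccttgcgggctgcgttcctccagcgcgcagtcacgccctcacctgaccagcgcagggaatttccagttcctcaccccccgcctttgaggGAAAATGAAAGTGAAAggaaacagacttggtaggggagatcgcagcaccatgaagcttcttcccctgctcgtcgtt
Psmb10: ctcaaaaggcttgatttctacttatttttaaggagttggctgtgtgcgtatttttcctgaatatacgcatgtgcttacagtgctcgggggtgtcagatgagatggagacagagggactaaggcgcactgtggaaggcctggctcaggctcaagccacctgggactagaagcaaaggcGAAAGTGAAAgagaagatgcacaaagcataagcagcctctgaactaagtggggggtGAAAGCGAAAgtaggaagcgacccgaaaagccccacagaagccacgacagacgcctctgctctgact
Psmb8: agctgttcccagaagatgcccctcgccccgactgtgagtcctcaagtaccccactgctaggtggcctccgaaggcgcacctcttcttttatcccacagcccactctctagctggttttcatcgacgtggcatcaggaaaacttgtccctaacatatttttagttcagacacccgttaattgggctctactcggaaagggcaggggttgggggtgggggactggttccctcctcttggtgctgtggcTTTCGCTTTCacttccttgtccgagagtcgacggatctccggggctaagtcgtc
Tap1: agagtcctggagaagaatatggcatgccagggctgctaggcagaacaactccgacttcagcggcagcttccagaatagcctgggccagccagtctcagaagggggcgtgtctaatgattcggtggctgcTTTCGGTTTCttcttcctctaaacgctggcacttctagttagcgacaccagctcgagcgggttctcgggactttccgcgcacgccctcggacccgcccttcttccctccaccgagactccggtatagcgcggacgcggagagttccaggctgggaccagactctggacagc

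A RefSeq window of 300 bases was matched for 39 of the 46 members. The interferon core, on either strand, was found in 7 of 10 processing gene windows, in 3 of 20 of class I (RT1-S3, RT1-S2 and RT1-N3) and in 0 of 9 of class II. Of all 33469 rat windows, 3.92% held it. Tapbp held 2 overlapping copies, 26 and 20 bases before the start, and Psmb10 held 2 apart, 73 and 17 bases before it. The core TTCNNNGAA of the gamma-activated site was found in 2 of 20, 0 of 9 and 1 of 10 windows of class I, class II and processing genes, against 8.87% of all windows. The windows of Tap1 and Psmb9 share 44 bases. A match of letters is a description of the window and shows no binding. A window without a match may hold a different spelling of an element, which was not searched. The RT1-CE4 window printed below, counted as without the core, holds tttcatttc, with 1 base between TTTC and TTTC where the search required 2. The counts by class therefore hold for the searched spelling only.

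Class II genes, which present peptides to CD4 T cells, showed a wide spread between arrays of 1 group and no call. RT1-Da, the brightest class II probe set, gave 12.26, 12.26 and 11.04 in saline and 13.12, 13.80 and 11.40 in cadmium at 6 weeks. Cadmium replicate 3 lay below saline replicates 1 and 2, and the difference was 0.92 (SE 0.72, limma adjusted p = 0.687), or 0.41 without cadmium replicate 2 and 1.61 without cadmium replicate 3. At 12 weeks it gave 10.32, 11.71 and 12.22 in saline and 9.93, 11.54 and 11.27 in cadmium, a difference of -0.50 (SE 0.72). With saline replicate 1 left out that was -1.05, and with cadmium replicate 1 left out it was -0.014.

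RT1-DMb and RT1-DMa form the exchange factor that loads class II molecules. RT1-DMb gave 9.79, 9.36 and 8.25 in saline and 10.04, 9.80 and 8.97 in cadmium at 6 weeks, and its difference was 0.47 (SE 0.58). RT1-DMa gave means there that were the same to 2 decimals, 9.19 ± 0.67 in saline and 9.19 ± 0.53 in cadmium (SD, n = 3). RT1-DOb, part of the DO modulator, gave its widest gap at 1 day, 0.84 (SE 0.48), with cadmium arrays of 6.46, 7.31 and 5.48 against saline arrays of 5.95, 5.60 and 5.20. That gap was 0.39 without cadmium replicate 2 and 1.30 without cadmium replicate 3. RT1-Db1 was 0.66 higher at 1 day (SE 0.27, unadjusted p = 0.0267), also with overlap, and 0.25 at 6 weeks.

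RT1-Ba, an alpha chain gene, differed by -0.44 at 12 weeks (SE 0.36), from -0.71 without saline replicate 1 to -0.20 without saline replicate 3. RT1-Bb, RT1-Db2 and RT1-DOa differed by 0.15, 0.11 and 0.07 at 6 weeks, all with overlap. Cd74, the invariant chain that guards class II molecules until loading, gave 13.08, 13.17 and 12.21 in saline and 13.13, 13.44 and 12.53 in cadmium at 6 weeks, a difference of 0.21 (SE 0.50). At 12 weeks it gave 11.24, 12.83 and 13.26 in saline and 11.37, 12.56 and 11.62 in cadmium, a difference of -0.59 (SE 0.50), which ran from -1.20 without saline replicate 1 to -0.19 without saline replicate 3. The lowest arrays of 12 weeks, saline replicate 1 and cadmium replicate 1, were low in RT1-Da and RT1-DMb too. RT1-Hb-ps1 had lower cadmium arrays without overlap at 6 weeks (-0.54, SE 0.19), at a level within background, where 8.04% of all genes were lower without overlap.

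The windows of RT1-CE4 and RT1-Da are shown to set a class I against a class II promoter without a match to the interferon core as spelled above. They are from RefSeq (GRCr8, RT1-CE4 at chr20:3509107-3509406 on the minus strand and RT1-Da at chr20:4515165-4515464 on the plus strand), and the capitals mark the Y box core CCAAT on either strand, 75 and 49 bases before the start.
RT1-CE4: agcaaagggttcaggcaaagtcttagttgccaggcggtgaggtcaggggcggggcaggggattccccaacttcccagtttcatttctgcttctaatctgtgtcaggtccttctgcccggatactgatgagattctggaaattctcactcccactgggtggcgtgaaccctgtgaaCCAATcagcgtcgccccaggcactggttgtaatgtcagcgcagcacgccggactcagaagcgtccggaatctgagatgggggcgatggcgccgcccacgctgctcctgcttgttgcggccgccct
RT1-Da: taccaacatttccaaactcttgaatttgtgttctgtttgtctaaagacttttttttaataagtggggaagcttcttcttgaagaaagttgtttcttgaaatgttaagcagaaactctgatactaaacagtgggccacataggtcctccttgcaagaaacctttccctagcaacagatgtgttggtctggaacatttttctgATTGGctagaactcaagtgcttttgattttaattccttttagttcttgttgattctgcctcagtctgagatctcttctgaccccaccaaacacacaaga

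The Y box core, an element of class II promoters bound by NF-Y, was found in 9 of 9 class II windows, 15 of 20 class I windows and 4 of 10 processing gene windows. It is short, and 37.5% of all windows held it.

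**Figure D3:**
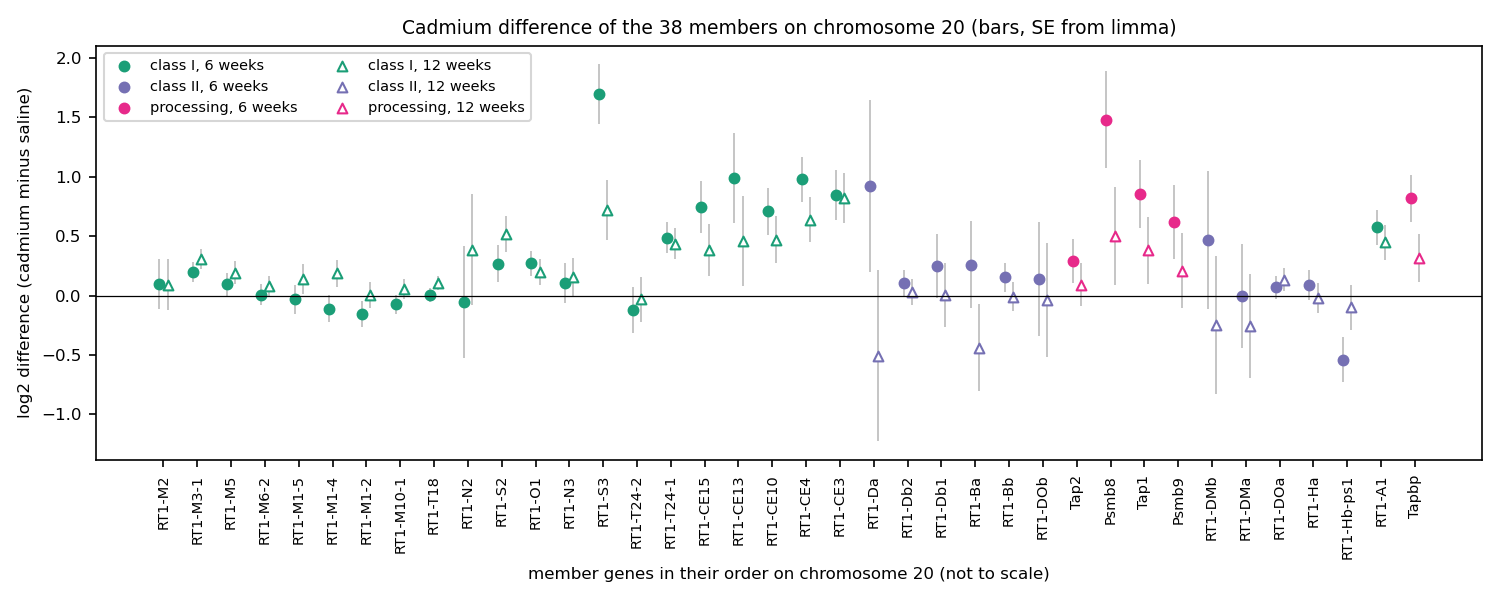
Log2 difference (cadmium minus saline, bars are the SE from limma) of the 38 members on chromosome 20 in their RefSeq order, which is not to scale; filled circles are 6 weeks, open triangles 12 weeks, and colours the class. Differences over 0.4 at 6 weeks stand at RT1-S3, from RT1-T24-1 to RT1-CE3, at RT1-Da, RT1-DMb, RT1-A1 and Tapbp, and at Psmb8, Tap1 and Psmb9, which lie between RT1-DOb and RT1-DMb.

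At 1 day no member passed, and every adjusted p from limma was 1.00, with 4 of 46 at an unadjusted p under 0.05 in either direction, against 1.96% of all genes. Of all 22084 genes 0% passed there. Class I genes without overlap were RT1-A1, RT1-CE3, RT1-CE4 and RT1-CE15. Medians were 0.05 in class I, 0.09 in class II and 0.19 among the processing genes, against -0.013 for all genes. Leaving out 1 array moved them from 0.0063 to 0.11 in class I, from -0.0077 to 0.41 in class II and from -0.012 to 0.24 among the processing genes. At 12 weeks, where 0.29% of all genes passed as higher, 8 of 46 members, all class I, were higher at an unadjusted p under 0.05, against 4.6% of all genes. Medians there were 0.30 in class I, -0.04 in class II and 0.15 among the processing genes, and leaving out 1 array moved them from 0.19 to 0.32, from -0.26 to 0.031 and from 0.054 to 0.25. Differences ran from -0.03 to 0.82 in class I and from -0.50 to 0.14 in class II.

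Whether the cadmium difference itself changed between times was tested by interaction. In limma 0 of 46 members passed in any of the 3 tests. From 1 day to 6 weeks the smallest p was that of RT1-S3, with an increase of 1.83 (SE 0.36, adjusted p = 0.273), and 8 of 46 had a larger difference at an unadjusted p under 0.05. Among all genes 4% did, and 0.00906% passed. From 6 to 12 weeks it was that of Psme1, with -1.01 (SE 0.30, adjusted p = 0.376), and 3 of 46 had a smaller difference at an unadjusted p under 0.05. Among all genes 5.42% did, and 0.0136% passed. In that comparison 12 of 12 processing genes had a value below 0, with a median of -0.50, against 49% of all genes. From 1 day to 12 weeks the lowest adjusted p was 0.752, that of RT1-M3-1, and 3 of 46 had a larger difference at an unadjusted p under 0.05. Among all genes 2.88% did, and 0.0408% passed. A larger effect at 6 weeks than at the other times was therefore not shown for any single member.

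In saline alone, RT1-T24-1 was the only member that passed between times. From 1 day to 6 weeks, where limma called 0.503% of all genes, it called 0 of 46 members. Lower at 6 weeks with an unadjusted p under 0.05 were RT1-T24-1, RT1-S3, Psme1 and Psme2, 4 of 46 against 7.44% of all genes. From 6 to 12 weeks 0% of all genes passed. Psme1 was 0.58 higher at 12 weeks than at 6 weeks (SE 0.21, adjusted p = 0.541). For these genes the cadmium difference at 6 weeks is measured against a saline group below that of 1 day. The cadmium level of RT1-S3 at 6 weeks, 9.35 to 9.66, still lay above all saline arrays of the study, which reached 9.15. That of Psme1, 10.47 to 11.11, overlapped the saline arrays of 1 day, which ran from 10.30 to 10.98. That of RT1-T24-1, 6.67 to 6.94, also overlapped its saline arrays of 1 day, which ran from 6.72 to 7.06.

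The level of each class as a mean log2 signal over its genes gives the same arrays side by side. For the 15 class I genes above background it was 6.43, 6.68 and 6.41 in saline and 6.93, 7.38 and 6.94 in cadmium at 6 weeks, and 6.62, 6.65 and 6.32 against 6.94, 6.92 and 7.04 at 12 weeks. The class I means of cadmium lay above those of saline at both times. For the 12 processing genes it was 7.61, 7.78 and 7.42 in saline and 8.12, 8.89 and 7.89 in cadmium at 6 weeks, and the 12-week values overlapped. For the 9 class II genes above background saline gave 6.97, 7.07 and 6.31 and cadmium 7.14, 7.26 and 6.74 at 6 weeks, which overlap.

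**Figure D4:**
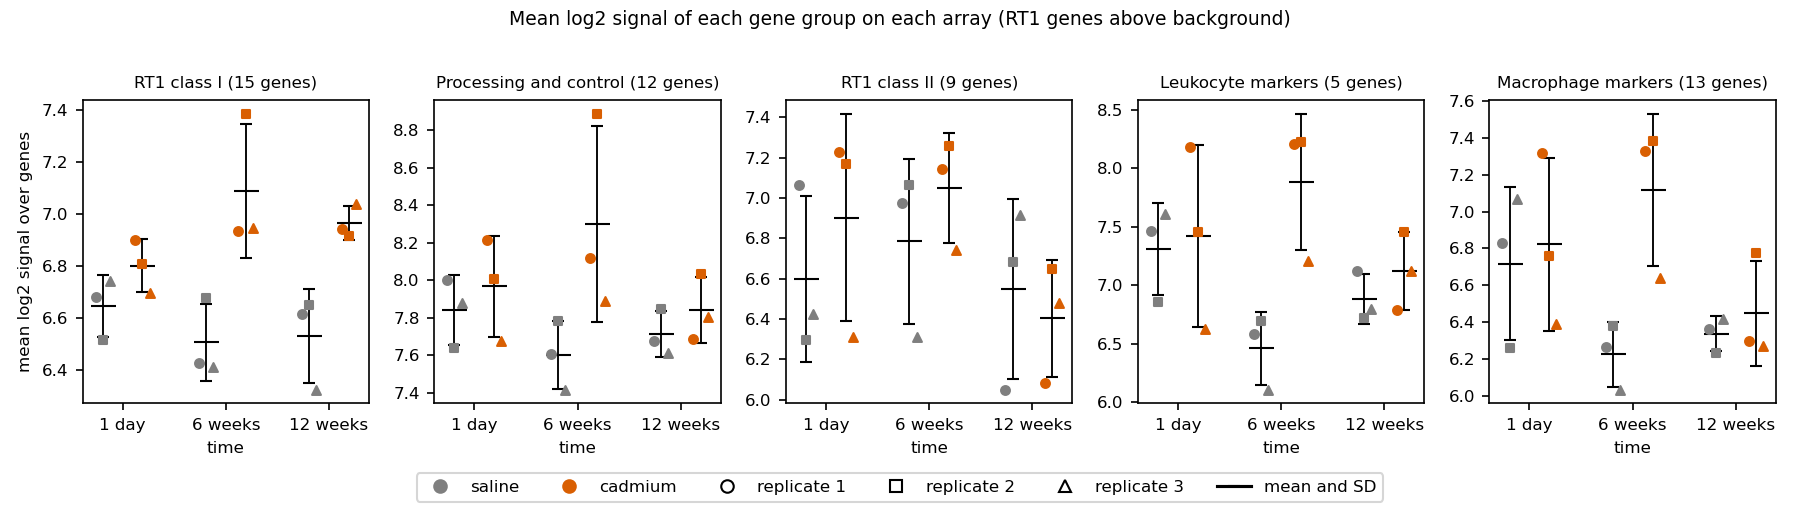
Mean log2 signal of class I (15 genes above background), processing and control (12), class II (9 above background), leukocyte marker (5) and macrophage marker (13) genes on each array; grey is saline, orange cadmium, symbols are replicates, and bars are mean and SD of 3 arrays. At 6 weeks the cadmium arrays lie above the saline arrays in class I, in processing genes and in both marker sets, and at 12 weeks in class I alone of these 5.

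At 6 weeks the mean levels of leukocyte and macrophage markers lay above saline, as did those of class I and processing genes. The class II means overlapped. The general leukocyte markers were above 0 for 5 of 5 (median 1.42), and their mean level was 6.11 to 6.70 on the saline and 7.21 to 8.22 on the cadmium arrays. Macrophage markers were above 0 for 12 of 13 (median 1.29), at 6.04 to 6.38 in saline and 6.64 to 7.38 in cadmium, with Cd163 at background. Cadmium replicate 3 of 6 weeks was the lowest cadmium array of both lists and also of the processing genes. For class I above background replicates 1 and 3 were alike, at 6.93 and 6.94. Replicate 2 stood apart from replicate 1 in the processing genes, 8.89 against 8.12. In the leukocyte list these 2 arrays gave 8.22 and 8.21, and in the macrophage list 7.38 and 7.33. At 12 weeks the macrophage level was 6.23 to 6.42 in saline and 6.27 to 6.77 in cadmium, and the leukocyte level 6.72 to 7.12 and 6.79 to 7.45, both with overlap. The dendritic cell level did not overlap there, at 4.86 to 4.93 in saline and 5.03 to 5.13 in cadmium. Levels of T and NK cell, B cell, neutrophil and endothelial markers overlapped at 12 weeks. The part of any of these cells in the differences of the members was not tested.

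Of the other cell types, T and NK cell markers were above 0 for 9 of 11 at 6 weeks (median 0.31, 4.48 to 4.64 in saline and 4.84 to 5.11 in cadmium), with Cd8a, Gzmb, Ncr1 and Prf1 at background. In this list Cd4 had the widest gap, with means of 8.18 in saline and 10.04 in cadmium, and Cd3d and Ncr1 lay below saline. Cd3d, Cd3e and Cd3g had means of 4.65, 4.37 and 4.60 in saline and 4.53, 4.69 and 4.91 in cadmium, far below Cd4. Which cells gave the Cd4 signal was not tested, so its gap is not read as one of T cells. Dendritic cell markers were above 0 for 6 of 8, with levels of 5.01 to 5.03 in saline and 5.04 to 5.46 in cadmium and Xcr1 at background. Itgax, which encodes the integrin chain CD11c, rose by 1.06 (SE 0.17, limma adjusted p = 0.0485), a call held in 9 of 27 alternatives (limma adjusted p from 0.00771 to 0.295) and lost, among others, without any 1 saline array of 6 weeks and with the replicate block (limma adjusted p = 0.0957). B cell and neutrophil markers were above 0 for 1 of 4 and 1 of 5, with Ms4a1, Cd79b, Csf3r, Mpo, S100a8 and S100a9 at background. Endothelial markers were above 0 for 1 of 5 (median -0.55), at 11.14 to 11.17 in saline and 10.53 to 10.86 in cadmium. Saline at 12 weeks replicate 1 held Cd79a at 9.56, against 5.50 and 5.56 on the other saline arrays of that time, and it was the lowest array of class II in saline.

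Interferon signalling was read from a list of 17 genes, of which 16 were measured. At 1 day 6 of 16 lay above 0 (median -0.027), at 6 weeks 14 of 16 (median 0.16) and at 12 weeks 12 of 16 (median 0.08). The mean level of the list overlapped at 1 day. It was 6.86 to 6.98 in saline and 7.16 to 7.54 in cadmium at 6 weeks. At 12 weeks it was 6.75 to 6.96 and 7.11 to 7.21, also without overlap. In limma 0 passed at 1 day and 1 at each later time. That gene was Irf7, a transcription factor of the interferon response, which gave 7.30, 7.50 and 6.56 in saline and 10.47, 9.64 and 10.29 in cadmium at 6 weeks. It rose by 3.01 (SE 0.41, limma adjusted p = 0.0201) at 6 weeks and by 2.91 (SE 0.41, limma adjusted p = 0.00435) at 12 weeks. At 1 day its cadmium mean was the lower, 8.40 ± 0.47 against 9.08 ± 0.58 in saline (SD, n = 3), a difference of -0.68 (SE 0.41) with overlap. The saline mean was 7.12 at 6 weeks and 6.77 at 12 weeks, so that in saline Irf7 fell from 1 day to 6 weeks (-1.96, SE 0.41, limma adjusted p = 0.0495) and from 1 day to 12 weeks (-2.31, SE 0.41, limma adjusted p = 0.0291). The rise at 6 weeks was lost with the replicate block (limma adjusted p = 0.0713) and without any saline array of 6 weeks or cadmium at 6 weeks replicate 1 (limma adjusted p from 0.0587 to 0.149). The fall in saline from 1 day to 6 weeks passed in 7 of 26 alternatives and that to 12 weeks in 21 of 26. Stat2 differed by 0.94 and 0.68 (SE 0.20) without overlap and without passing, and Irf1 by 1.00 and 0.25 (SE 0.38). The Irf1 difference at 6 weeks was 0.42 without cadmium replicate 2. Ifng, Ifnb1 and Socs1 lay at background.

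In the other pathway lists no gene passed at 6 or 12 weeks in limma. Of 15 genes of class I loading and constitutive proteasome counterparts, 14 lay above 0 at 6 weeks (median 0.24) and 7 at 12 weeks. That list includes Ggt7, a gamma-glutamyltransferase gene with no known place in class I loading, which was entered in error and lay at background with a difference of 0.08 at 6 weeks. Psmb7, the subunit that Psmb10 replaces in the immunoproteasome, differed by 0.63 at 6 weeks (SE 0.23, limma adjusted p = 0.404). Of 17 genes of the class II pathway and costimulation 14 lay above 0 at 6 weeks (median 0.16) and 8 at 12 weeks. Ctss, a protease that trims the invariant chain, differed by 1.15 (SE 0.44, limma adjusted p = 0.429) at 6 weeks and by -0.10 at 12 weeks. Of 7 class I-like genes 6 lay above 0 at 6 weeks and 5 at 12 weeks. Hfe, an iron regulator of class I form, was lower without overlap at 12 weeks, by a difference of -0.47 (SE 0.19, limma adjusted p = 0.445).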

How the data were processed

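Total RNA of whole kidney was hybridised to Affymetrix arrays as biotinylated cRNA, per the labels' protocols. Each deposited value is a log2 signal of 1 probe set. How the authors summarized and normalized the arrays is not given in the sources used here. Probe sets were named from the platform annotation: 70570 in all, 23437 with 1 gene name and 505 with several. The brightest probe set with 1 name stood for a gene, which gave 22084 genes.

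Group means of all 18 arrays were fitted in limma 3.58.1 (R 4.3.3, data.table version 1.17.8) by linear models with moderated variances (lmFit and eBayes; 12 residual degrees of freedom and 2.45 from the prior). Tests were two-sided, and p was adjusted by Benjamini-Hochberg over all 22084 genes within each contrast. A gene passed at an adjusted p under 0.05. The fit was tested on simulated data. Python 3.11.15 with matplotlib 3.10.9 drew the figures. The background level stands in for detection calls, which the value table does not carry.

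The members, the gene lists and the rule for named genes were chosen with earlier results of these data known. The rule names the 12 listed genes, RT1 genes that pass in any contrast, the 4 class I and 4 class II genes with the smallest p per cadmium comparison, the brightest 4 of each class, and up to 4 genes per list. Further RT1 genes, named to account for the members, and Ctss, Cd79a, Irf1 and Hfe where outside it were chosen after their values were seen.

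Replicate numbers were checked for pairing. Correlations of deviations from the group means for the same number ran from -0.469 to 0.433, with 2 of 9 over 0.1, so the numbers were not used as pairs. Alternatives were median centring, quantile normalization, the 6 arrays of a comparison alone, array weights, trend and robust moderation, a replicate block, genes above background only, the mean of a gene's probe sets, probe sets with several names, and leaving out each array. Irf7, Irf1, Itgax and Cd52 were followed through them as an addition made after seeing the data. Arrays have no read depth, and their number limits the precision.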

Additional observations from a re-analysis of the deposited data

Results flagged for a closer look

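The cadmium difference of Irf7, a gene outside the set, differed between times in limma's interaction test. It was -0.68 at 1 day and 2.91 at 12 weeks, an increase of 3.59 (SE 0.58, limma adjusted p = 0.04999, just under the threshold), with all 3 cadmium arrays above all 3 saline arrays at 12 weeks. The call was held in 11 of 26 alternatives (limma adjusted p from 0.0182 to 0.145). From 1 day to 6 weeks the increase was 3.69 (SE 0.58) and did not pass (limma adjusted p = 0.0872).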

How the results depend on the processing

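With array weights 13 members passed at 6 weeks, 12 in the average over 6 and 12 weeks and 3 in saline from 1 day to 6 weeks, and the differences of Psmb10 and Psme2 at 1 day turned to 0.14 and 0.042; the cause was not tested. At 6 weeks array weights called 500 of all genes against 9. Such counts over all genes are not given here for the average and for saline. With the replicate block 0 members passed at 6 weeks (RT1-S3, adjusted p = 0.0954) and 0 in saline from 1 day to 12 weeks, RT1-T24-1 no longer passed in the average (adjusted p = 0.0857), and no other call of a named member changed with it. For Irf7, Irf1, Itgax and Cd52 these alternatives were added after seeing the data; the block ended the calls of Itgax and of Irf7 at 6 weeks and in saline (adjusted p = 0.107 to 6 weeks and 0.0666 to 12 weeks), and with only the 6 arrays compared Irf7 (0.287) and Cd52 (0.277) no longer passed at 12 weeks. After quantile normalization 1 member passed at 12 weeks and 0 in saline from 1 day to 12 weeks, and 1 class II gene lay above 0 at 12 weeks; with the mean of a gene's probe sets 5 did. With genes above background only, where fewer genes were tested, the class I median was 0.58 at 6 weeks and 0.45 at 12 weeks, 14 class I genes lay above 0 at 12 weeks and 1 member passed in saline from 1 day to 6 weeks. Leaving out 1 array at a time gave 0 to 2 members passing at 6 weeks, 1 to 5 in the average, 0 to 1 in saline from 1 day to 6 weeks and 0 to 1 from 1 day to 12 weeks. It gave 4 to 13 members higher without overlap at 1 day and 13 to 21 at 12 weeks, a class I median of 0.19 to 0.32 and 2 to 6 class II genes above 0 at 12 weeks. Groups with an array fewer separate more easily, so the shares of all genes given for 3 arrays do not apply to these counts. Leaving out 1 array also turned the sign of small differences. At 1 day these ran from -0.18 to 0.052 for Tap2, -0.089 to 0.15 for B2m, -0.062 to 0.51 for Cd74, -0.22 to 0.15 for Psmb10, -0.024 to 0.58 for Psmb8, -0.33 to 0.029 for Psme1 and -0.18 to 0.029 for Psme2. At 6 weeks they ran from -0.091 to 0.47 for Cd74, -0.023 to 0.32 for Ciita and -0.015 to 0.20 for RT1-Db2. At 12 weeks they ran from -0.078 to 0.17 for B2m, -0.051 to 0.089 for Psme1, -0.11 to 0.26 for Tap2 and -0.0022 to 0.13 for Psme2. The cause of these turns was not tested. RT1 probe sets can read near-identical copies, the log2 scale is not calibrated, and signal near background limits what the dim RT1 genes show.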

Other observations

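Over all 18 arrays cadmium at 6 weeks replicate 2 was the highest for 26 of the 46 members, 12 of 23 class I genes, 3 of 11 class II genes and 11 of 12 processing and control genes. The brightest class II probe set, RT1-Da, spanned 9.93 to 13.80 over the 18 arrays, and Cd74 spanned 11.24 to 13.44. Cd52, a leukocyte surface protein, rose by 1.13 at 12 weeks (SE 0.15, limma adjusted p = 0.00266), with saline arrays of 4.93, 5.21 and 4.99 and cadmium arrays of 5.90, 6.19 and 6.43, while Ptprc and Cd53, markers of the same list, differed by 0.40 and -0.45 with overlap.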
